A study of Mus musculus with 8 samples.

Results

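The genes described here encode 5 enzymes that modify ribosomal RNA (rRNA): Mettl5, Dimt1, Emg1, Nat10 and Zcchc4. They were chosen by name from the authors' table of ribosome profiling, and all 5 were among its 10453 genes. The cells were B16, a mouse melanoma line. Wild-type cells (WT) were compared with cells edited at Mettl5 by CRISPR/Cas9 (Mettl5 KO, here KO), and the labels do not say whether the KO cells were 1 clone or several. Each genotype had 2 input RNA libraries and 2 libraries of ribosome footprints, the stretches of mRNA that ribosomes protect from digestion, and all cells had received cycloheximide to hold ribosomes in place. The question was how the edited gene and enzymes of the same kind stood in RNA, in footprints and in the ratio of footprints to input RNA, which is called translational efficiency.

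Ribosomal RNA carries methyl and acetyl groups at fixed positions, most of them near the parts of the ribosome that read the mRNA and make peptide bonds. METTL5 methylates an adenosine of 18S rRNA to m6A and is stable only with its partner TRMT112, and ZCCHC4 makes the corresponding mark on 28S rRNA. DIMT1 dimethylates adenosines near the end of 18S rRNA, EMG1 methylates a pseudouridine of 18S rRNA, and NAT10 acetylates cytidines of 18S rRNA and of some tRNAs. DIMT1, EMG1 and NAT10 also belong to the machinery that assembles the small subunit in the nucleolus.

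In input RNA, 3 of the 5 genes were lower in KO: Mettl5 by 1.32-fold, Dimt1 by 1.18-fold and Emg1 by 1.11-fold. Of all genes tested there, 18.6% were called lower and 36.4% in either direction. Nat10 and Zcchc4 did not pass the test, and none of the 5 was called higher. In footprints only Emg1 passed, 1.21-fold lower in KO, beside 6.22% of all genes called lower and 12.5% in either direction. Each of these calls in input RNA and footprints was lost under some of the alternative ways of testing given below. None of the 5 passed in translational efficiency, beside 9.78% of all genes called. The largest estimate there was that of Mettl5, a ratio 1.43-fold higher in KO with an interval that reached just below no change.

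Of the 6 promoter windows that RefSeq's table (build GRCm38.p6) gives for the 5 genes, each running from 250 bases before to 50 bases after a transcript start, 2 held the motif CCGGAAG on either strand, the core that factors of the ETS family bind. Across all 32851 windows of the table, 8.86% held it. The windows were those of Mettl5 and Emg1, both among the genes whose input RNA fell. That of Mettl5 belongs to a transcript start inside the gene's annotated span, which runs to 69886634. Each match is given inside 30 bases of its gene's own strand, with the 7 bases of the motif or of its reverse complement in capitals.

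Mettl5 (chr2:69885594-69885623, minus strand, at the transcript start): gcgtgtcggtaCTTCCGGcactgcggggag

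Emg1 (chr6:124712280-124712309, minus strand, upstream): gagaaagggcaCCGGAAGtgcgcctccctc

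Emg1 (chr6:124712204-124712233, minus strand, upstream): gaatggcgcatCCGGAAGtcccgcctcttg

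The third gene that fell, Dimt1, had no match, nor did Nat10 or Zcchc4. The E-box CACGTG, read on either strand, was in 7.15% of all windows and in 0 of these 6. The motifs were picked after the windows had been read, a match is no evidence of binding, and it was not tested whether these letters bear on the changes.

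The input libraries held between 11927567 and 18823632 reads in listed genes and the footprint libraries between 2279456 and 3098930. All 9 melanocyte markers looked up were in the table, whereas only 1 of 6 leukocyte, 4 of 7 fibroblast and 2 of 8 epithelial and endothelial markers were. The melanocyte markers summed to between 72482 and 72913 normalized reads in WT input and between 81984 and 82399 in KO input, the fibroblast markers to between 90.8 and 93.4 and between 69.9 and 76.2. In input RNA of both genotypes the leukocyte marker lay between 7.03 and 8.78 and the epithelial and endothelial markers between 10.4 and 16.9. In footprints the melanocyte markers summed to between 148622 and 149116 in WT and between 194775 and 196369 in KO. The fibroblast markers summed to between 121 and 133 there in WT and between 62.0 and 99.98 in KO, the leukocyte marker to between 8.48 and 9.196 and between 2.86 and 5.91, and the epithelial and endothelial markers to between 11.5 and 17.0 and between 17.1 and 26.6. The KO footprint libraries were thus higher in the melanocyte sum and lower in the fibroblast sum, without overlap. The epithelial and endothelial sum was just higher in KO and the leukocyte value lower, but both rest on very few reads. A single KO footprint read was worth 2.86 or 2.95 normalized reads. Of the fibroblast, leukocyte, epithelial and endothelial markers, 0 were called in footprints by limma. In input RNA the fibroblast marker Postn was called lower in KO (log2 fold change -1.03, limma adjusted p = 3.59e-06) and the others were not called. Of the 9 melanocyte markers, 8 were called higher and 1 lower (Mitf, -0.10) in input RNA. In footprints 7 were called higher and 0 lower, and the uncalled estimate of Mlana was negative (-0.11). The part of these differences in the results below was not tested. In bulk libraries such as these, fewer cells of a kind and less RNA per cell cannot be told apart. The labels do not call the 2 libraries of a group separate cultures, so a p-value here speaks only of how much these libraries vary, and that variation may be technical.

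Mettl5 (ENSMUSG00000051730.15, mm10 chromosome 2, 69871195 to 69886634) is the edited gene. Its input RNA was 114 and 111 normalized reads (the authors' reads per gene, scaled to make libraries comparable) in the WT libraries, and 75.75 and 95.7 in the KO libraries. Both KO libraries lay below both WT libraries, and the KO libraries differed from each other more than the WT libraries did. How many of all genes separate in this way was not counted. Here and for the genes below, separation of the groups is therefore a description only. The log2 fold change in input RNA was -0.40 ± 0.10 (SE, n = 2 per group; 95% interval -0.60 to -0.19, limma adjusted p = 0.00162). Only 3.0% of genes tested had a lower value, so Mettl5 stood near the bottom of the range. Without KO input replicate 1 the change was -0.23 (adjusted p = 0.141). DESeq2 on the recovered reads gave adjusted p = 0.0666, limma without a trend of variance on level 0.118, and limma with both kinds of library in the same fit 0.236.

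Footprints of Mettl5 were 91.1 and 113 normalized reads in WT and 109 and 112 in KO. The KO libraries lay inside the span of the WT libraries. They rested on 92 reads in WT (exact Poisson 95% interval 74.2 to 113) and 76 in KO (59.9 to 95.1), intervals that cover counting error only. The log2 fold change in footprints was 0.12 ± 0.23 (SE, adjusted p = 0.812), with an interval from -0.36 to 0.60. A fall as deep as the -0.40 estimated in input RNA lies just outside that interval, while smaller falls and rises up to 1.52-fold lie inside it. The sign of the footprint change turned without WT footprint replicate 1 (-0.029). Whole-gene counts cannot show a small insertion or deletion, so neither value checks the edit.

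Dimt1 (ENSMUSG00000021692.9, mm10 chromosome 13, 106947071 to 106961325), the 18S adenosine dimethyltransferase, had input values of 181 and 176 normalized reads in WT and 149.7 and 152 in KO. The groups were tight and did not overlap. The log2 fold change in input RNA was -0.24 ± 0.071 (SE, adjusted p = 0.00667), and DESeq2 gave adjusted p = 0.152 and the fit with both kinds of library 0.565. Its footprints were 25.4 and 23.0 normalized reads in WT and 25.7 and 23.6 in KO, so the groups overlapped. Only 22 reads in WT (exact Poisson 95% interval 13.8 to 33.3) and 17 in KO (9.90 to 27.2) lay behind them. The interval of the footprint change, from -0.86 to 0.92 on the log2 scale, therefore holds changes of nearly 2-fold either way, and no difference was detectable at this depth (adjusted p = 0.979).

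Emg1 (ENSMUSG00000004268.11, mm10 chromosome 6, 124704370 to 124712186), the 18S pseudouridine methyltransferase, had the most reads of the 5 genes. Its input values were 917 and 882 normalized reads in WT and 782 and 833 in KO, with all KO values below all WT values (log2 fold change -0.16 ± 0.034 (SE), adjusted p = 0.000341). In input RNA 18.0% of genes tested had a lower value than Emg1, and its adjusted p was 0.122 without limma's trend and 0.223 with both kinds of library fitted together. Its footprints were 1041 and 995 normalized reads in WT and 788 and 895 in KO, again without overlap. The log2 fold change in footprints was -0.28 ± 0.079 (SE, 95% interval -0.44 to -0.11, adjusted p = 0.0203), from 924 reads in WT and 579 in KO. The call in footprints was lost without WT footprint replicate 1 (adjusted p = 0.154) and without KO footprint replicate 1 (-0.19, adjusted p = 0.170). It was also lost with DESeq2 (adjusted p = 0.202) and without limma's trend (0.325), whereas edgeR gave -0.28 with adjusted p = 0.00878.

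Nat10 (ENSMUSG00000027185.14, mm10 chromosome 2, 103721258 to 103762954), the cytidine acetyltransferase, had input values of 447 and 412 normalized reads in WT and 430.0 and 421 in KO. The KO libraries lay within the WT span. The log2 fold change in input RNA was -0.013 ± 0.046 (SE, adjusted p = 0.856), and its interval from -0.11 to 0.079 reaches a rise of 1.06-fold at most. Its footprints were 685 and 772 normalized reads in WT and 648 and 721 in KO, which overlapped (log2 fold change -0.089 ± 0.091 (SE), 95% interval -0.28 to 0.099, adjusted p = 0.609). Neither interval of Nat10 reached the size of the change estimated for Mettl5 in input RNA.

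Zcchc4 (ENSMUSG00000029179.14, mm10 chromosome 5, 52775409 to 52824666), the 28S m6A methyltransferase, had input values of 175 and 154 normalized reads in WT and 185 and 163 in KO. The groups overlapped, and the estimate was the only positive one of the 5 in input RNA (log2 fold change 0.081 ± 0.076 (SE), 95% interval -0.072 to 0.23, adjusted p = 0.437). Its footprints were 76.3 and 87.4 normalized reads in WT and 85.7 and 67.9 in KO, from 74 and 53 reads. They overlapped as well (log2 fold change -0.096 ± 0.27 (SE), 95% interval -0.65 to 0.46, adjusted p = 0.873). The enzyme that makes m6A on the large subunit thus gave no call in either kind of library, with a footprint interval too wide to place it.

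**Figure D1:**
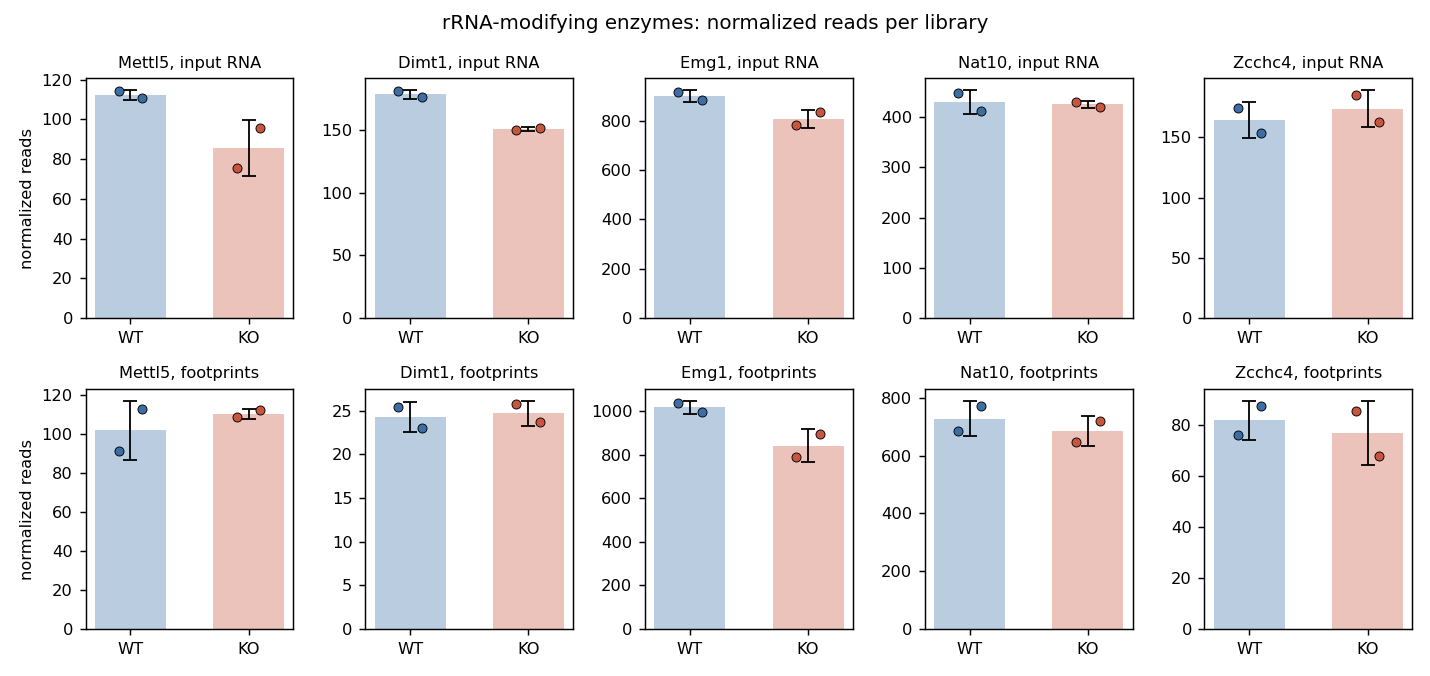
Normalized reads of the 5 genes in each library (points), with the group mean (bar) and SD (error bar, n = 2), for input RNA (top) and footprints (bottom); each panel has its own axis from 0. In input RNA the KO points of Mettl5 (75.75 and 95.7), Dimt1 and Emg1 lie below the WT points, and in footprints those of Emg1 alone do. How many of all genes separate in this way was not counted.

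Read against the whole table, 3 of 5 genes called lower in input RNA compare with 18.6% of the 10443 genes tested that were called lower and 36.4% called in either direction. With 5 genes chosen with earlier results known, that share carries no test of its own. The median log2 fold change of the 5 was -0.16 in input RNA, beside 0.0022 over all genes tested. In footprints 1 of 5 was called lower, beside 6.22% of genes called lower and 12.5% called in either direction, and the median of the 5 was -0.089 beside 0.0047. In translational efficiency 0 of 5 were called by limma, beside 9.78% of genes. At an unadjusted p under 0.05 the number was also 0, and edgeR and DESeq2 likewise called 0 of them.

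**Figure D2:**
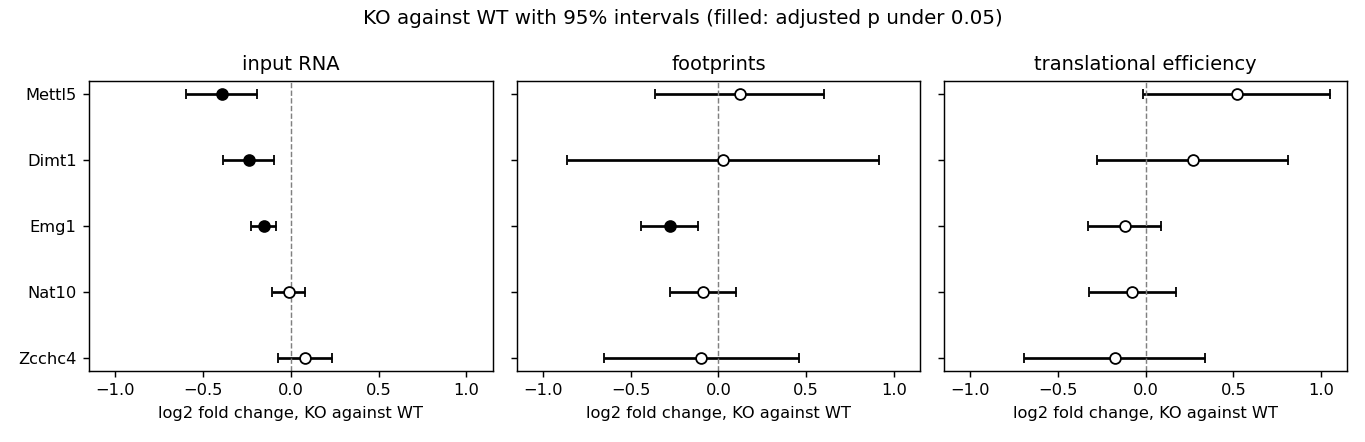
Log2 fold change of KO against WT (x axis) with its 95% interval for each gene in input RNA, footprints and translational efficiency; filled points passed an adjusted p of 0.05 by limma. The intervals in input RNA are narrow and those of Mettl5, Dimt1 and Emg1 lie below 0, while in footprints the interval of Dimt1 spans -0.86 to 0.92.

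The ratio of footprints to input RNA was taken for the libraries of the same genotype and number. It has no absolute unit and also depends on how much of the transcript is coding. For Mettl5 the ratios were 0.799 and 1.02 in WT and 1.43 and 1.17 in KO. Both KO ratios exceeded both WT ratios, and the change in translational efficiency was 0.52 ± 0.24 on the log2 scale (SE, 95% interval -0.016 to 1.05, adjusted p = 0.216). Of that estimate, input RNA contributed its fall of 0.40 and footprints their uncalled 0.12. The authors' deposited table gives Mettl5 a log2 fold change of 0.517 with an adjusted p of 0.311 and no call, and DESeq2 on the recovered reads gave the same values to the digits printed. For Dimt1 the ratios were 0.141 and 0.131 in WT and 0.172 and 0.156 in KO, likewise without overlap (0.27 ± 0.24 on the log2 scale (SE), adjusted p = 0.548). The SE of the ratio is below the SE of its footprint change alone (0.43), because that fit shares 1 variance between the kinds of library, and DESeq2 gave the ratio an SE of 0.49.

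For Emg1, whose RNA and footprints both fell, the ratios were 1.13 in both WT libraries and 1.01 and 1.07 in KO. The change was -0.12 ± 0.092 on the log2 scale (SE, 95% interval -0.33 to 0.084, adjusted p = 0.460). The ratios of Nat10 were 1.53 and 1.87 in WT and 1.51 and 1.71 in KO, and those of Zcchc4 were 0.437 and 0.567 in WT and 0.463 and 0.417 in KO. Both overlapped between genotypes (adjusted p = 0.731 and 0.692). In the authors' deposited table these 3 genes and Dimt1 have adjusted p between 0.552 and 0.810 and no call, and 2.65% of all its genes are called Up or Down.

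The 5 genes differed far more from each other in this ratio than between genotypes. In WT the order from high to low was Nat10 (1.70 as a ratio of group means), Emg1 (1.13), Mettl5 (0.907), Zcchc4 (0.498) and Dimt1 (0.136), and no neighbours in that order overlapped in their WT ratios. Among all genes in WT, the ratio of Nat10 was at percentile 74.3 and that of Dimt1 at percentile 3.85. In KO the ratio of Mettl5 (1.29) lay above that of Emg1 (1.04), so this pair changed places by group means. Their KO ratios did not overlap either, but only as paired here by library number. The change in the ratio of Mettl5 was itself not called (limma adjusted p = 0.216). Mettl5 moved from percentile 45.7 of all genes in WT to percentile 61.8 in KO. These positions are descriptions of the libraries and were not tested.

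**Figure D3:**
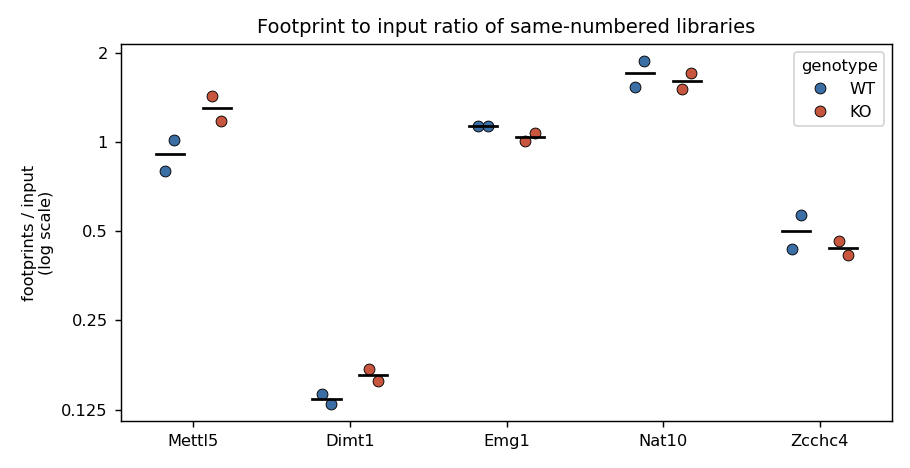
Ratio of footprints to input RNA for each pair of same-numbered libraries (points, log axis) in WT and KO, with the mean of the 2 ratios (line). The spread between genes, from 0.131 for Dimt1 to 1.87 for Nat10 in WT, is far wider than the distance between genotypes, and Mettl5 and Dimt1 are the genes whose KO points lie above their WT points. The share of all genes with such separate ratios was not counted.

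By annotated span, 4 of the 5 genes overlap another protein-coding gene of the table, and 3 of them, those that fell in input RNA, run towards their neighbour on the opposite strand. Mettl5 shares 652 bases with Ssb, which encodes the La RNA-binding protein, Dimt1 shares 2330 bases with Kif2a, a kinesin gene, and Emg1 shares 347 bases with Lpcat3, a lysophospholipid acyltransferase gene. Nat10 shares 10 bases with Caprin1 on the same strand, and Zcchc4 overlaps no gene of the annotation. The sources used here do not say whether counting was by strand, and reads from the shared bases could have been given to either gene, to both or to none. These neighbours were looked up after the members' values had been seen.

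Ssb, at 1248 and 1225 normalized reads in WT input and 993 and 1059 in KO input, fell by 0.27 on the log2 scale (adjusted p = 2.36e-09), as Mettl5 did. Its footprints were 2501 and 2520 in WT and 2868 and 2697 in KO, higher in both KO libraries (0.15 ± 0.047 on the log2 scale (SE), adjusted p = 0.0368), and its ratio rose by 0.42 (adjusted p = 0.0025). For Mettl5 the same 3 estimates were -0.40, 0.12 and 0.52, of which only the first passed the test, and no test of likeness between the genes was made. Kif2a gave -0.29 in input RNA (adjusted p = 6.14e-07), -0.041 in footprints (adjusted p = 0.839) and 0.25 in the ratio (adjusted p = 0.143), beside -0.24, 0.027 and 0.27 for Dimt1. Lpcat3 gave -0.21 in input RNA (adjusted p = 0.00323), -0.35 in footprints (adjusted p = 0.0327) and -0.14 in the ratio (adjusted p = 0.570), beside -0.16, -0.28 and -0.12 for Emg1. The part of shared reads in these values was not tested. For Caprin1, next to Nat10, input RNA fell by 0.10 (adjusted p = 7.3e-06) and its ratio rose by 0.20 (adjusted p = 0.00261), whereas Nat10 passed in neither.

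**Figure D4:**
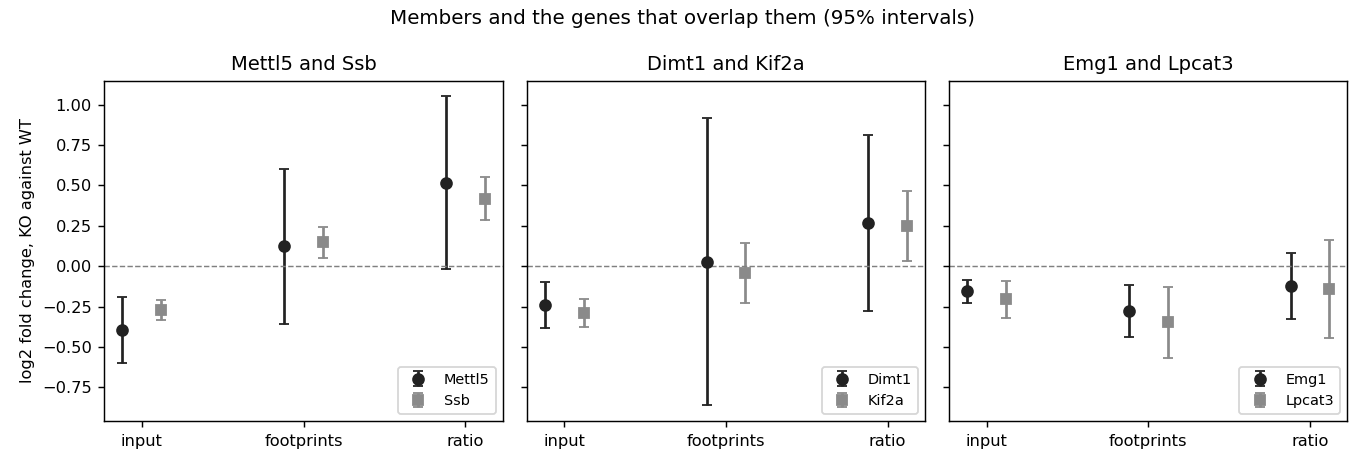
Log2 fold change of KO against WT with its 95% interval for Mettl5, Dimt1 and Emg1 (circles) and for the gene that overlaps each on the opposite strand (squares), in input RNA, footprints and their ratio. In each panel the interval of the member holds the estimate of its neighbour, as for Mettl5 (-0.40) and Ssb (-0.27) in input RNA.

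The genes with the pattern most like each member were taken as those at the smallest Euclidean distance over the 8 libraries, on log2 values centred within each kind of library, among 7693 genes with at least 20 reads in every library. Nearest to Mettl5 were Efcab7 (distance 0.18), Rap2c and Vezt, with changes between -0.34 and -0.28 in input RNA and between 0.018 and 0.076 in footprints. Ssb ranked 42 by this measure. Nearest to Emg1 were Rap2b, Mtr and Znhit6, the last a box C/D snoRNP assembly factor, with footprint changes between -0.31 and -0.29, and Lpcat3 ranked 308. Nearest to Dimt1 were Nol11, a small-subunit processome protein, Zfp654 and Tpp2, and Kif2a ranked 951. Nearest to Nat10 were Mterf3, Kif3a and Taf15, and to Zcchc4 they were Rnf44, Nfs1 and Trappc9. Genes selected for likeness are alike by construction, and no test was made.

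Other enzymes and adaptors of cytosolic rRNA modification did not share 1 direction in input RNA: of 7 in the table, 2 rose and 2 fell, beside 36.4% of all genes called in either direction, with a median of 0.039 beside 0.0022 over all genes. The count that rose was 1 without WT input replicate 2 or without KO input replicate 1, and 0 without KO input replicate 2, with DESeq2, without limma's trend and with both kinds of library fitted together. The count that fell was 1 without limma's trend and 2 under the other alternatives. Those that fell were Nop2 (log2 fold change -0.22 ± 0.024 (SE), adjusted p = 1.52e-09), which methylates a cytosine of 28S rRNA, and Ftsj3 (-0.13, adjusted p = 3.84e-05), which methylates riboses of rRNA. Those that rose were Wbscr22 (0.16, adjusted p = 0.0101), which encodes the 18S guanosine methyltransferase BUD23, and Rrp8 (0.12, adjusted p = 0.0412), which encodes a 28S adenosine methyltransferase. None of the 7 was called in footprints by limma, edgeR or DESeq2, where the smallest unadjusted p was 0.278, and Nop2 was called higher in translational efficiency (0.24, adjusted p = 0.0408). That call was lost without any single input library, without either WT footprint library and without limma's trend. The list also named Trmt112, the partner gene of Mettl5, which was not analysed here. Of 6 other methyltransferases that depend on TRMT112, Alkbh8 (-0.30, adjusted p = 4.41e-06) and Thumpd3 (-0.26, adjusted p = 0.000121), both tRNA enzymes, fell in input RNA and Wbscr22 rose. The rise was lost without KO input replicate 2, with DESeq2, without limma's trend and with both kinds of library fitted together. The count that fell was 1 in the last 2 of these settings. In footprints 0 of these 6 were called by limma, edgeR or DESeq2, with 1 at an unadjusted p under 0.05 (Alkbh8, -0.26), and in translational efficiency 0 were called by any of them and 0 had an unadjusted p under 0.05. DESeq2 gave an adjusted p in footprints to only 3 of the 6 and could not call the others.

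The small nucleolar ribonucleoproteins (snoRNPs) place most of the ribose methyl groups and pseudouridines of rRNA. Of 5 box C/D snoRNP proteins, 4 fell in input RNA and 1 rose, beside 18.6% of all genes called lower and 36.4% called in either direction: Nop58 (-0.18, adjusted p = 1.06e-08), Rrp9 (-0.18), Snu13 (-0.091) and Nop56 (-0.070) fell, and Fbl, the ribose methyltransferase fibrillarin, rose (0.081, adjusted p = 0.0205). The rise of Fbl was lost without WT input replicate 2, without KO input replicate 2, with DESeq2, without limma's trend and with both kinds of library fitted together. In footprints 1 of the 5, Nop58, rose (0.16, adjusted p = 0.0156) and 0 fell, beside 12.5% of all genes called. The count was 0 without limma's trend and 0 with DESeq2, which gave an adjusted p to 3 of the 5. In translational efficiency 3 of the 5 rose, Nop58 (0.34, adjusted p = 0.00179), Snu13 (0.61, adjusted p = 0.0073) and Rrp9 (0.51, adjusted p = 0.0272), and 0 fell, beside 9.78% of all genes called, with a median of 0.34 beside 0.005 over all genes. The SE of the ratio was below that of the footprint change alone for Snu13 (0.11 beside 0.24) and Rrp9 (0.12 beside 0.14), as for Dimt1 above. Neither passed in footprints. Of 6 box H/ACA snoRNP proteins, 2 rose and 2 fell in input RNA. Nop10 (0.29) and Nhp2 (0.11) rose, and Dkc1, the pseudouridine synthase (-0.16, adjusted p = 2.45e-05), and Naf1 (-0.17) fell. Each of these counts was 1 with DESeq2. Without limma's trend 1 rose and 0 fell, and with both kinds of library fitted together 0 rose and 1 fell. A call that fell was also lost without WT input replicate 2 or without KO input replicate 2. In footprints Nop10 (0.85, adjusted p = 0.000552) and Naf1 (0.49) rose, and Shq1 (-0.47) and Gar1 (-0.52) fell, beside 12.5% of all genes called. Without WT footprint replicate 2 the counts were 1 higher and 0 lower, without KO footprint replicate 1 they were 1 and 1, with DESeq2 1 and 0, and without limma's trend 0 and 0. In translational efficiency Dkc1 (0.32), Naf1 (0.66) and Nop10 (0.56) rose and Nhp2 (-0.22) fell, and the count that rose ranged from 0 to 3 over the alternatives, with 0 without KO input replicate 1 and 1 without any of the other input libraries. The call of Nhp2 was lost without any single input library. The count of box C/D genes called lower in input RNA was 4 here, 2 without WT input replicate 1 or without KO input replicate 1, 1 with DESeq2 and 0 without limma's trend. The count of box C/D genes called higher in translational efficiency ranged from 1 to 4 over the alternatives, with 1 whenever any input library was left out.

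The factors that process 18S rRNA, among which Dimt1, Emg1 and Nat10 work, include GTPases, scaffold proteins and helicases. Of 29 in the table, 15 fell and 1 rose in input RNA, beside 18.6% of all genes called lower and 36.4% called in either direction, with a median of -0.079 beside 0.0022 over all genes. Bms1, a GTPase of the processome, fell most clearly (-0.34, adjusted p = 2.1e-14), followed by Wdr43 (-0.23), Utp20 (-0.17) and Utp18 (-0.24), while Imp3 rose (0.14). The call of Imp3 was lost without WT input replicate 2, without KO input replicate 2 and with DESeq2. It was also lost without limma's trend and with both kinds of library fitted together. In footprints 4 of the 29 rose and 1 fell, a share of 17.2% beside 12.5% of all genes. Without WT footprint replicate 2 the counts were 1 higher and 0 lower, with DESeq2 also 1 and 0, and without limma's trend 0 and 0. The count lower was 2 without either KO footprint library. Heatr1 (0.33, adjusted p = 0.00135), Wdr3 (0.34) and Utp14a (0.42) were among those that rose, and Dcaf13 fell (-0.21, adjusted p = 0.0123), as Emg1 did. The share of the 29 called in translational efficiency was 17.2%, beside 9.78% of all genes, with a median of 0.043 beside 0.005. In translational efficiency 5 rose, among them Heatr1 (0.40, adjusted p = 0.00427), Wdr3 (0.44) and Utp20 (0.32), and 0 fell by limma; the count that rose ranged from 0 to 10 over the alternatives, and 0 to 1 were called lower. Leaving out WT input replicate 1 or KO input replicate 2 gave 3 that rose, WT input replicate 2 or KO input replicate 1 gave 1, and KO footprint replicate 1 gave 10. The count lower in input RNA was 8 without KO input replicate 1, 5 with DESeq2, 3 with both kinds of library fitted together and 2 without limma's trend. The mitochondrial rRNA enzymes, which modify the separate rRNA of mitochondria, gave 0 calls among 9 in input RNA by limma, edgeR or DESeq2 (smallest unadjusted p 0.152), and 1 without WT input replicate 2. In footprints 1 of the 9, Mrm3, rose (0.54, adjusted p = 0.00903), beside 12.5% of all genes called. DESeq2 gave an adjusted p there to only 1 of the 9. The call of Mrm3 was lost without WT footprint replicate 2, with DESeq2 and without limma's trend, and 2 of the 9 rose without KO footprint replicate 2. In translational efficiency 0 of the 9 were called by limma, edgeR or DESeq2, with 3 at an unadjusted p under 0.05, and 1 was called without WT footprint replicate 1 or without KO footprint replicate 1.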

How the data were processed

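Input RNA and ribosome footprints of B16 cells were analysed in 8 libraries, 2 per group. Per the submitters' processing notes, Bowtie (no version given) and build mm10 were used. How reads were counted, with which annotation and whether by strand, is not stated in the labels. The authors deposited normalized reads per gene (treated as signal), of which 100% were whole multiples of 1 read within 0.001 of a read. The table also holds the authors' own log2 values for translational efficiency, each with a p-value and a call, per the file headers, without naming the test.

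The normalized values were fitted for all genes with limma 3.58.1 (R 4.3.3), with a trend of variance on level, on log2(value + 1). Genes averaging under 1 were left out, and fold changes of low genes are understated. Input and footprint libraries were each fitted alone, and a fit of all 8 gave translational efficiency as the genotype by library-kind interaction term. P-values are two-sided, Benjamini-Hochberg adjusted over all genes tested, with a threshold of 0.05, and errors are SE unless named. Because the table held normalized values, the count tests edgeR 4.0.16 and DESeq2 1.42.0 ran on the recovered reads as alternatives. Of these, edgeR called 3802 genes in input RNA, 1473 in footprints and 1343 in translational efficiency (DESeq2: 1721, 460 and 1023). In footprints DESeq2 gave an adjusted p to 5184 genes, beside 10453 tested by limma. Other alternatives were pseudocounts of 0.5 and 5, filters, scaling, a replicate block and leaving out each library. The procedures were also run on simulated data, in which the planted changes were larger than those of any called member. They were planted only in genes with higher values than the footprints of Dimt1. That run therefore does not show how well changes as small as those of the members are found. Symbols are those of the table, with 16 that had become dates restored from gene IDs, and 0 columns of samples were unmapped.

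The members and gene lists were chosen with earlier results of these data known. Named genes are the members, up to 4 per list by smallest p in a comparison, and the 3 nearest in pattern to each member. The overlapping genes, and list members beyond that rule, were chosen after their values were seen. Coordinates and promoter windows are from RefSeq tables of GRCm38.p6, in which all 5 members matched by symbol.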

Additional observations from a re-analysis of the deposited data

How the results depend on the processing

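Of 244 values of the 15 member results under alternatives, 221 kept their direction and their side of the threshold. These include the uncalled results that stayed uncalled. Another 12 kept direction but no longer passed, and all 12 belong to called results with 15 alternatives each. They were 4 for Mettl5, 2 for Dimt1 and 2 for Emg1 in input RNA, and 4 for Emg1 in footprints. The other 11 values changed sign, all 11 of them for uncalled results when a library was left out. The ranges with a library left out were -0.071 to 0.045 (Nat10) and -0.0099 to 0.17 (Zcchc4) in input RNA. In footprints they were -0.029 to 0.27 (Mettl5), -0.043 to 0.096 (Dimt1) and -0.26 to 0.069 (Zcchc4), and in translational efficiency -0.16 to 0.011 (Nat10). Genes called in input RNA numbered 3803, but 1276 without limma's trend, 1721 with DESeq2 and 829 with both kinds of library fitted together (2856 to 3442 with a library left out). In footprints 1309 became 0 without the trend (1807 at an unadjusted p under 0.05, and 1473 with edgeR), 460 with DESeq2, 2313 with both kinds fitted together and 788 to 1391 with a library left out. In translational efficiency 1021 became 133 without the trend and 419 to 1719 with a library left out. The cause of these moves was not tested.

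The labels give same-numbered libraries nothing in common but the number. The differences between replicates correlated at -0.0056 (input) and -0.0093 (footprints) between genotypes over genes. Between input and footprints they correlated at -0.031 in WT and -0.011 in KO. Such correlations cannot show whether same-numbered libraries came from the same culture. A replicate block gave 3877, 1548 and 742 genes and changed the call of 0 members. Pairing input with footprints by number, added after seeing the data, gave 1066. Depth limits the footprints of Dimt1, Mettl5 and Zcchc4 most. edgeR's filter left out Dimt1 in footprints, and DESeq2 gave no adjusted p there to Mettl5, Dimt1 and Zcchc4.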

Other observations

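The neighbour values of Mettl5, Dimt1 and Emg1 led to a look at all such pairs of the table, chosen after the data were seen. Among 264 pairs of convergent genes whose annotated spans overlap, 66.7% had input changes of the same sign, with a median absolute difference of 0.11 on the log2 scale. Among 625 convergent neighbours within 10000 bases that do not overlap, 56.6% did, with a median difference of 0.14. In footprints the shares were 45.8% and 50.6%, and in translational efficiency 54.9% and 47.0%. All pairs come from the same 8 libraries, level was not matched between the kinds of pair, and the part of shared reads was not tested.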
